A study of Homo sapiens with 12 samples.

Results

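The WNT genes described here are 46 protein-coding genes of 58051 gene identifiers in the count files. They were chosen by symbol and not by their values: the WNT, FZD, DKK and SFRP families, plus AXIN2, LEF1, TCF7, NKD1, NKD2, RNF43, ZNRF3, LGR4, LGR5 and LGR6. By role they are 18 ligands, 10 frizzled receptors, 3 receptors for R-spondins, 2 ubiquitin ligases that act on frizzled receptors, 8 secreted antagonists, 3 intracellular feedback inhibitors and 2 transcription factors. Their levels were measured by RNA-seq of poly(A) RNA in FaDu cells, an established line from a hypopharyngeal squamous cell carcinoma, and in Cal27 cells, an established line of oral squamous cell carcinoma. In each line there were parental cells, afatinib-resistant cells (AfaR) and erlotinib-resistant cells (ErlR), with 2 libraries in each of the 6 groups. Afatinib inhibits the ERBB family of receptor kinases and erlotinib inhibits EGFR. Each resistant model is a single population raised by stepwise exposure to its drug and kept off the drug for the last day, so the drug and the population that grew out under it cannot be told apart. FaDu was grown in EMEM and Cal27 in DMEM, so line and medium cannot be told apart either.

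WNT ligands are lipid-modified secreted proteins that bind frizzled receptors. In the canonical branch, a ligand bound to a frizzled receptor and a co-receptor of the LRP family stabilizes β-catenin, which joins TCF and LEF factors at target genes, among them the feedback inhibitor AXIN2. In other branches, typified by WNT5A, frizzled receptors and ROR receptors act on cell polarity and movement without β-catenin. R-spondins bound to LGR receptors keep the ubiquitin ligases RNF43 and ZNRF3 from removing frizzled receptors from the cell surface, while DKK and SFRP proteins block the pathway outside the cell. In squamous epithelium, WNT7A, WNT7B and WNT10A are ligands of the epithelial cells themselves.

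Sequence was available for 30 of the 46 genes, as 36 promoter windows of 300 bases (from 250 before to 50 after a start site, RefSeq, GRCh38.p14). The 6 windows below belong to WNT7A and WNT10A, 2 of the ligands that fell, to WNT5A and WNT5B, the ligands that rose in both AfaR models, and to LEF1 and TCF7, at the end of the canonical branch. They are written 5′ to 3′ along the gene's strand, and capitals mark GC boxes, the letters GGGCGG or, on the other strand, CCGCCC. WNT5A, WNT5B and TCF7 each have a further window without a GC box, not shown.
WNT7A, chr3:13880022-13880321, minus strand: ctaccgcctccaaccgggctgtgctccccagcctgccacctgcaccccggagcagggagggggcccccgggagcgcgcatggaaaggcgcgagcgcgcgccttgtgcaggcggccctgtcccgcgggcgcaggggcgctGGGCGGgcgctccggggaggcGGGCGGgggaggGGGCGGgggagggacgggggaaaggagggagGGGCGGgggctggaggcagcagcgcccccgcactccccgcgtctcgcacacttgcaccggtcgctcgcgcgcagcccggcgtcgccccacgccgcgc
WNT10A, chr2:218880602-218880901, plus strand: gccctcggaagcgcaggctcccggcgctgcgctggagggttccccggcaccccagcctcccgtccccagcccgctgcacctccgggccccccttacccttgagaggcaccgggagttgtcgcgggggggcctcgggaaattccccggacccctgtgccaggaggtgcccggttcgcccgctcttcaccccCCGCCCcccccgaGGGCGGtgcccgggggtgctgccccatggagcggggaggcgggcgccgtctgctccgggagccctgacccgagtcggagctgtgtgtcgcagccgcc
WNT5A, chr3:55487257-55487556, minus strand: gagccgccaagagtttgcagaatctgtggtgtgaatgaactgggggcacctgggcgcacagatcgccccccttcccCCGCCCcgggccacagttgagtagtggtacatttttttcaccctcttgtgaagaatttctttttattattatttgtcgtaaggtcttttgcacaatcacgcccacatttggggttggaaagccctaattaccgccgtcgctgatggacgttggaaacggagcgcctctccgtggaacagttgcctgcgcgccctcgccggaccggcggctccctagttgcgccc
WNT5B, chr12:1628981-1629280, plus strand: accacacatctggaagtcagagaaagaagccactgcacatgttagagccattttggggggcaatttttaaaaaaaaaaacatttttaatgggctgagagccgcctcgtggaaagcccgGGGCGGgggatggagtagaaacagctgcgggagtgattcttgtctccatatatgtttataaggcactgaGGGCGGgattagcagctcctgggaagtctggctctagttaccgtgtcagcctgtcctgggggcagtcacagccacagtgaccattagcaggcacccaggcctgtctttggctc
LEF1, chr4:108166252-108166551, minus strand: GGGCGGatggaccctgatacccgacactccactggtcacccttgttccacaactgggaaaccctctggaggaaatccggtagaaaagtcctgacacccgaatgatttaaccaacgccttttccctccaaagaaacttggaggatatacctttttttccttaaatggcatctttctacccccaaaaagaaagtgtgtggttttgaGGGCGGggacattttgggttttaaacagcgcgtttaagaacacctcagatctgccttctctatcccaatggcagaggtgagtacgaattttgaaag
TCF7, chr5:134115363-134115662, plus strand: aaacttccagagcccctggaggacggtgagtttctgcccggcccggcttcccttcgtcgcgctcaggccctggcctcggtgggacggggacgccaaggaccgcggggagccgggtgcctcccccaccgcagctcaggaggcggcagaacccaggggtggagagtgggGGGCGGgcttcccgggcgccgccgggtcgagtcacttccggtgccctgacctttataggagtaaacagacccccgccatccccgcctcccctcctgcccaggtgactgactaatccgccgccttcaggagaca
A GC box lay in 25 of the 36 windows of these genes, against 45% of 35116 windows of all genes. The core letters of a TCF or LEF site, CTTTGAT on either strand, lay in 0 of the 36, against 2.62% of all windows. An AP-1 site, TGAGTCA on either strand, lay in 1 of the 36, that of RNF43, against 4.95%. TATAAA on either strand lay in 4 of the 36, against 11.5%. None of these 4 strings of letters can lie within another, and a match describes the letters only. The WNT7A window holds 4 GC boxes and 80.3% G and C, and the LEF1 window 2 GC boxes and 47% G and C, against a median of 58.7% in all windows.

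Between 16334937 and 23399259 reads were counted on genes per library. Levels are given as CPM, counts scaled to the size of the library, after TMM scaling of all 12 libraries together. Log2 fold changes come from edgeR's quasi-likelihood test. Their standard error (SE) was derived from the F statistic of that test, as the size of the log2 fold change divided by the square root of F. For scarce genes this SE is rough and can be smaller than counting error alone. A gene was called where its Benjamini-Hochberg adjusted p was under 0.05 and its log2 fold change was beyond 1 in either direction, and only called genes are said to rise or fall. The 2 libraries of a group are labelled as biological replicates, with nothing more on their origin. P-values rest on the spread within groups, estimated over all groups of a fit together and moderated across genes. A call can thus change when a library outside the comparison is left out. Markers of squamous epithelium were high in 5 groups, with summed levels from 1252 to 3998 CPM per kb over 10 genes, and stood at 366 and 380 CPM per kb in Cal27 AfaR, where 8 of the 10 fell. KRT14, TP63, CDH1 and EPCAM were among them and fell by 7.24, 3.41, 2.42 and 2.84 on the log2 scale. In the same libraries the summed level of 10 fibroblast or mesenchymal markers was 261 and 284 CPM per kb, against 7.69 and 8.61 CPM per kb in Cal27 parental cells and from 3.92 to 5.52 CPM per kb in the other groups. Most of that sum in Cal27 AfaR was VIM, with a mean of 232 CPM per kb. Of the 10 markers, 6 could be tested and 4 rose (VIM, LUM, COL1A1 and PDGFRB). The fibroblast markers DCN, FAP and PDGFRA had 2, 2 and 1 counts over both Cal27 AfaR libraries. These marker changes move with every Cal27 AfaR value below, and their part in those values was not tested. In RNA from whole cultures, fewer cells that make a message and less message per cell cannot be told apart.

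Of the 46 genes, 30 passed the filter on low counts in FaDu and 32 in Cal27, 28 of them in both, and 20 were called in at least 1 of the 4 resistant models. A scarce gene can pass that filter through the group in which it is high. In FaDu AfaR, 5 genes rose (FZD10, WNT5A, WNT5B, DKK3 and TCF7) and 1 fell (WNT10A). Of all genes tested in that comparison 6.48% were called higher and 0.954% lower. In FaDu ErlR only TCF7 rose and only FZD2 fell, with 1.54% of all genes called higher and 0.504% lower. In Cal27 AfaR, 12 of the 32 genes tested rose and 4 fell, against 11.5% and 8.06% of all genes. In Cal27 ErlR, 4 rose and 4 fell, against 3.56% and 9.92% of all genes. In either direction, 20% of the WNT genes tested in FaDu AfaR were called against 7.43% of all genes, 6.67% in FaDu ErlR against 2.05%, 50% in Cal27 AfaR against 19.6% and 25% in Cal27 ErlR against 13.5%. Their median log2 fold change was 0.19, -0.10, 0.70 and 0.21 in the same order, where the median of all genes lay between -0.03 and 0.00. No gene was called in all 4 models, 3 in 3 of them (WNT10A, DKK3 and TCF7), 6 in 2 and 11 in 1. Of these, 13 rose in every model that called them, 5 fell in every one, and 2 (FZD2 and WNT10B) rose in some and fell in others. The matching counts over all genes were not made, so these numbers describe the WNT genes only. The 2 resistant models of a line share their parental libraries, so agreement between them is not independent.

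**Figure D1:**
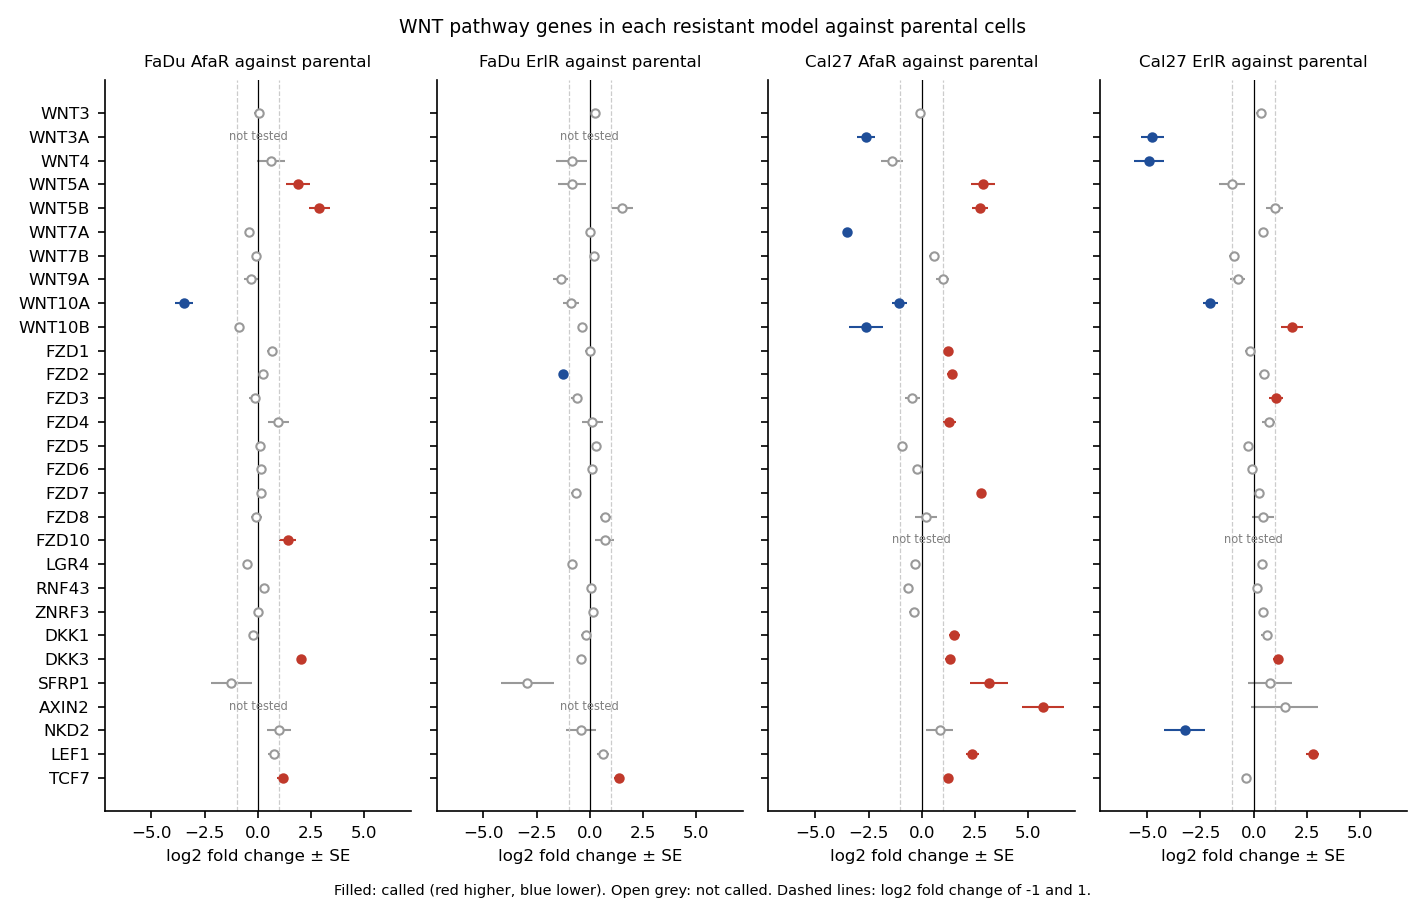
Log2 fold change ± SE (horizontal axis) of the 29 WNT genes that were called in at least 1 model or reached a mean of 10 CPM in at least 1 group, in each resistant model against parental cells of its line (2 libraries per group). Filled points are called genes, red higher and blue lower; Cal27 AfaR has 16 filled points and FaDu ErlR has 2.

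Among ligands, WNT7B was the most abundant message per kilobase in every library. WNT7B made up 57.6% and 54.7% of the summed ligand level (CPM per kb, 18 genes) in the FaDu parental libraries and 55.9% and 45.5% in the Cal27 parental libraries. It measured 147 and 162 CPM in FaDu parental, 143 and 147 in AfaR and 153 and 203 in ErlR cells, and was not called in either FaDu model. In Cal27 it measured 161 and 125 CPM in parental, 177 and 243 in AfaR and 85.5 and 65.3 in ErlR cells. Both ErlR libraries lay below both parental libraries, with a log2 fold change of -0.95 ± 0.20 (adjusted p = 0.00804) that stayed inside the fold limit. The AfaR value was 0.56 ± 0.20 (adjusted p = 0.05), also inside that limit.

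WNT7A (GRCh38, chr3:13816258-13880121, minus strand) was called in Cal27 AfaR alone of the 4 models. Its level was 48.5 and 34.0 CPM in Cal27 parental, 3.73 and 3.54 in AfaR and 60.2 and 51.9 in ErlR cells. The Cal27 AfaR libraries lay far below every other library of the study, an 11.3-fold fall (log2 fold change -3.50 ± 0.22, adjusted p = 7.04e-06). In FaDu, WNT7A stood at 37.7 and 45.9 CPM in parental, 33.2 and 30.6 in AfaR and 39.0 and 45.1 in ErlR cells, with log2 fold changes of -0.41 ± 0.14 (adjusted p = 0.0770) and -0.00 ± 0.14.

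WNT10A (chr2:218880363-218899581, plus strand), a ligand of epidermis and its appendages, fell in 3 models. In FaDu it went from 16.1 and 21.9 CPM in parental to 1.21 and 2.22 CPM in AfaR cells (log2 fold change -3.47 ± 0.44, adjusted p = 0.00296), while FaDu ErlR had 14.7 and 6.02 CPM and was not called. In Cal27 it went from 23.7 and 38.4 CPM in parental to 14.6 and 15.4 in AfaR and 4.66 and 10.6 in ErlR cells. All 4 resistant Cal27 libraries lay below both parental ones. The fall in ErlR was -2.04 ± 0.35 (adjusted p = 0.00317), and -2.73 without ErlR replicate 2. The fall in AfaR was -1.05 ± 0.33 (adjusted p = 0.0344), and this call was lost without parental replicate 2 (-0.65), AfaR replicate 1 or AfaR replicate 2.

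WNT3A, a canonical ligand, and WNT4 were falls of Cal27. WNT3A had 6.47 and 7.18 CPM in Cal27 parental, 1.57 and 0.638 in AfaR and 0.192 and 0.306 in ErlR cells. Its groups did not overlap, with log2 fold changes of -2.61 ± 0.42 (adjusted p = 0.00141) in AfaR, -3.40 without AfaR replicate 1, and -4.76 ± 0.53 (adjusted p = 0.000437) in ErlR. In FaDu, WNT3A was at most 0.320 CPM in each of the 6 libraries and was not tested. WNT4 had 6.18 and 8.98 CPM in Cal27 parental, 4.21 and 1.51 in AfaR and 0.0639 and 0.428 in ErlR cells. It fell in ErlR by 4.91 ± 0.70 on the log2 scale (adjusted p = 0.00137), by 4.14 without ErlR replicate 1 and by 6.73 without ErlR replicate 2. The AfaR value of WNT4 in Cal27 was -1.39 ± 0.51 (adjusted p = 0.0551), and in FaDu, where its 6 libraries ran from 1.02 to 7.2 CPM, it was not called.

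WNT5A and WNT5B, ligands best known for signalling without β-catenin, rose in both AfaR models. WNT5A (chr3:55465715-55490539, minus strand) had 3.32 and 20.0 CPM in Cal27 parental, 94.4 and 77.4 in AfaR and 6.01 and 5.74 in ErlR cells. The AfaR libraries were the highest of the study by a wide margin, but the 2 parental libraries differed widely, so that the log2 fold change of 2.88 ± 0.56 (adjusted p = 0.00367) became 2.10 without parental replicate 1 and 4.69 without parental replicate 2. In FaDu, WNT5A had 0.728 and 3.33 CPM in parental, 6.55 and 8.48 in AfaR and 1.54 and 0.719 in ErlR cells. The FaDu AfaR rise was 1.88 ± 0.56 (adjusted p = 0.0475), was 3.33 without parental replicate 2, and lost its call without parental replicate 1 (1.15), AfaR replicate 1 or AfaR replicate 2.

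WNT5B had 1.52 and 1.28 CPM in Cal27 parental, 6.86 and 11.9 in AfaR and 2.30 and 3.36 in ErlR cells. Its rise in Cal27 AfaR was 2.74 ± 0.38 (adjusted p = 0.000556). In FaDu it had 0.680 and 0.572 CPM in parental, 2.77 and 6.71 in AfaR and 1.98 and 1.70 in ErlR cells. Every resistant library of both lines lay above both of its parental libraries. The FaDu AfaR rise was 2.89 ± 0.48 (adjusted p = 0.00740), was 2.11 without AfaR replicate 2 and lost its call without parental replicate 1 (adjusted p = 0.0571). The ErlR values of WNT5B, 1.53 ± 0.51 in FaDu and 0.99 ± 0.39 in Cal27, were not called.

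The remaining abundant ligands moved less. WNT10B stood at 10.6 and 10.2 CPM in FaDu parental and 5.77 and 5.6 in AfaR cells, giving -0.89 ± 0.20 on the log2 scale (adjusted p = 0.0182), inside the fold limit. In Cal27 it was scarce, with 19 counts over both parental libraries and 3 over both AfaR libraries, a ratio of 6.60 lower in AfaR (95% counting interval from 1.94 to 34.8). It had 2.04 and 1.89 CPM in Cal27 ErlR, against 0.757 and 0.350 CPM in parental cells. WNT10B would not have passed the filter on low counts in Cal27 without the ErlR libraries. A rise in ErlR was thus the only change its test there could show. Both its calls in Cal27, -2.62 in AfaR and 1.79 in ErlR, were lost when any of several libraries was left out, among them AfaR replicate 1 and AfaR replicate 2 in either case, parental replicate 1 for the fall and parental replicate 2 and each ErlR replicate for the rise, and the rise was 2.46 without parental replicate 1. With DESeq2 in place of edgeR neither call held (adjusted p = 0.0701 and 0.117). WNT3 lay between 6.15 and 11.2 CPM in all 12 libraries and was not called. WNT9A had 7.72 and 13.7 CPM in FaDu parental and 4.67 and 3.66 in ErlR cells, not called (-1.37 ± 0.35, adjusted p = 0.0592), though DESeq2 called it (adjusted p = 0.005).

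**Figure D2:**
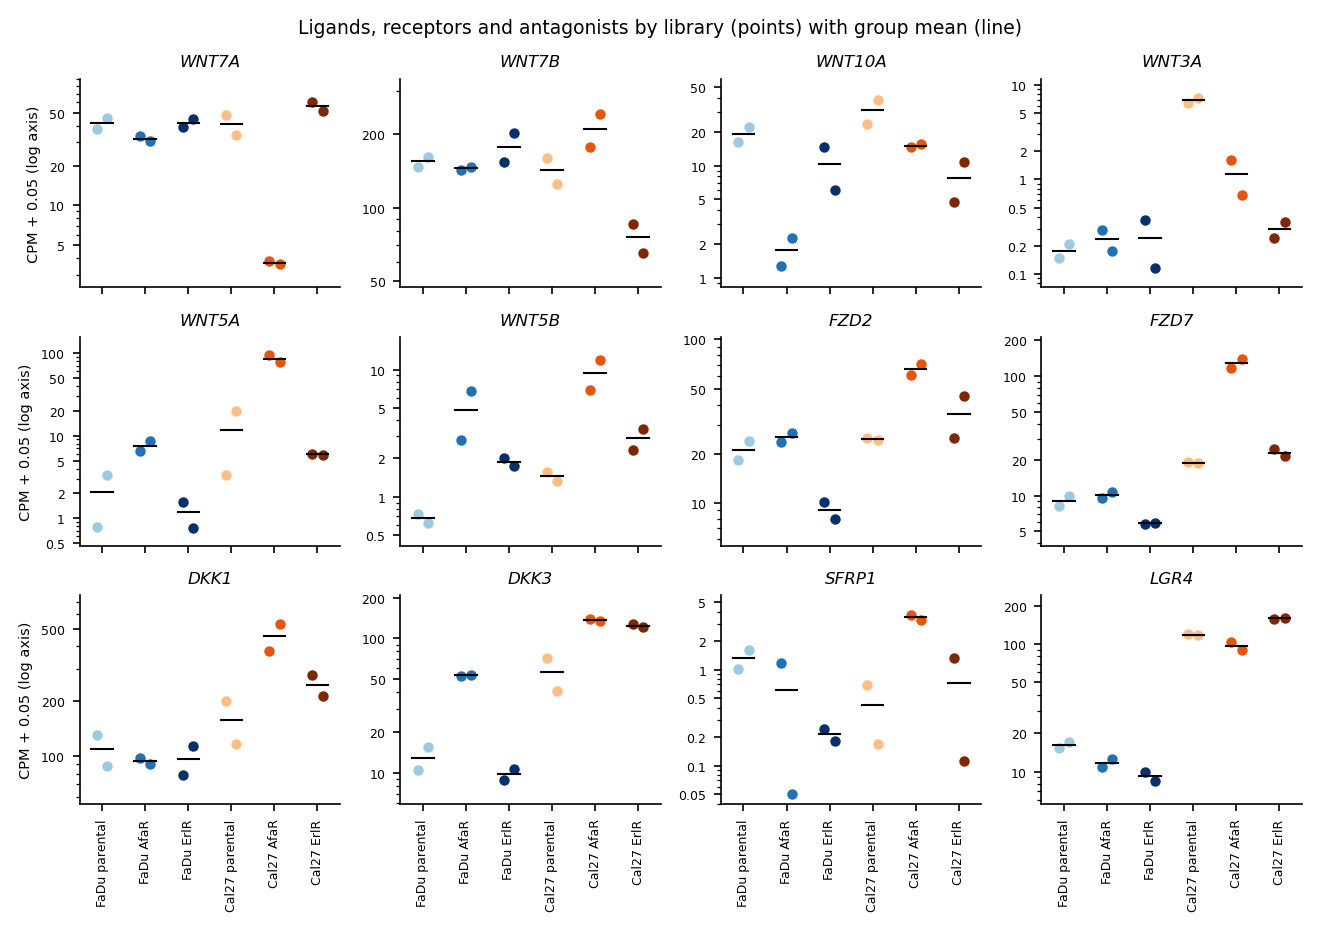
Levels of 12 ligands, receptors and antagonists in CPM plus 0.05 (vertical log axes, scaled per gene), with a point per library and a line at the mean of the 2 libraries of each group. WNT7A is low only in Cal27 AfaR, whereas WNT5A and FZD7 are highest there, and WNT3A is at several CPM only in Cal27 parental cells.

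The make-up of the ligand messages differed by model. In Cal27 AfaR, WNT7B held 57.9% and 68.1% and WNT5A 20.7% and 14.6% of the summed ligand level per kilobase. In Cal27 ErlR, WNT7B held 45.9% and 39.4% and WNT7A 35.7% and 34.5%. The summed level itself was 60.5 and 70.6 CPM per kb in Cal27 AfaR and 36.9 and 32.8 in Cal27 ErlR, against 56.8 and 54.3 in Cal27 parental cells. In FaDu it lay between 43.4 and 58.6 CPM per kb in all 6 libraries.

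Of the 10 frizzled receptors, FZD6 had the most message per kilobase in FaDu and in Cal27 parental cells. FZD6 lay between 169 and 211 CPM in the 6 FaDu libraries and between 82.5 and 112 CPM in the 6 Cal27 libraries, and was called in none of the 4 models. It held 68.7% and 66.3% of the summed frizzled level per kilobase in FaDu parental cells and 52.3% and 54.7% in Cal27 parental cells.

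Cal27 AfaR had another order. FZD7 (chr2:202034587-202038445, plus strand) had 19.0 and 18.7 CPM in Cal27 parental, 117 and 140 in AfaR and 24.4 and 21.3 in ErlR cells, a 6.82-fold rise in AfaR (log2 fold change 2.77 ± 0.15, adjusted p = 3.47e-06) with no overlap between the AfaR libraries and any other of the study. FZD2 had 25 and 24.2 CPM in Cal27 parental, 60.9 and 71.2 in AfaR and 25 and 45.3 in ErlR cells, and rose in AfaR by 1.43 ± 0.24 (adjusted p = 0.00174). FZD7, FZD2 and FZD6 then held 34.1% and 37.6%, 32.4% and 35.0%, and 26.3% and 21.1% of the frizzled level, and the sum over the 10 receptors was 88.9 and 96.3 CPM per kb against 45.2 and 50.2 in Cal27 parental cells.

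FZD1 (6.58 and 10.5 CPM in parental, 20.8 and 18.9 in AfaR cells) and FZD4 (1.92 and 2.92 CPM, then 5.56 and 6.27) also rose in Cal27 AfaR. Their log2 fold changes were 1.22 ± 0.24 (adjusted p = 0.00372) and 1.29 ± 0.31 (adjusted p = 0.00983). FZD1 lost its call without parental replicate 1 (0.92) and FZD4 without parental replicate 1 or AfaR replicate 2. FZD4 shares 18.9% of its exonic bases with PRSS23 on the other strand, and the strand setting of the counting is not given in the sources used here. FZD5 went the other way in Cal27 AfaR, from 19.7 and 21.6 CPM to 10.0 and 11.8 CPM, with a log2 fold change of -0.92 ± 0.17 (adjusted p = 0.00304) inside the fold limit.

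In each of the other models 1 frizzled receptor was called. In FaDu ErlR, FZD2 had 10.1 and 7.91 CPM against 18.4 and 24.0 in parental cells, a fall of 1.24 ± 0.20 on the log2 scale (adjusted p = 0.0161). This call was lost without parental replicate 2 or ErlR replicate 2, and under scaling by the ERCC spike-ins, which raises the median of all genes in that comparison by 0.49, the fall was 0.74. In FaDu AfaR, FZD10 had 2.28 and 2.84 CPM against 0.631 and 1.3 in parental cells, a rise of 1.39 ± 0.42 (adjusted p = 0.0483) that lost its call when any of the 6 libraries was left out. In Cal27 ErlR, FZD3 had 9.07 and 8.92 CPM against 3.20 and 5.37 in parental cells, a rise of 1.04 ± 0.33 (adjusted p = 0.0411) that was lost without parental replicate 1 (0.74) or either ErlR replicate. FZD9 had 11 counts over both FaDu parental libraries and 0 over both ErlR libraries, at least 2.85-fold lower, and was not called (adjusted p = 0.0926). FZD8 lay between 7.41 and 17.4 CPM in FaDu and between 1.17 and 3.07 CPM in Cal27 and was not called.

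**Figure D3:**
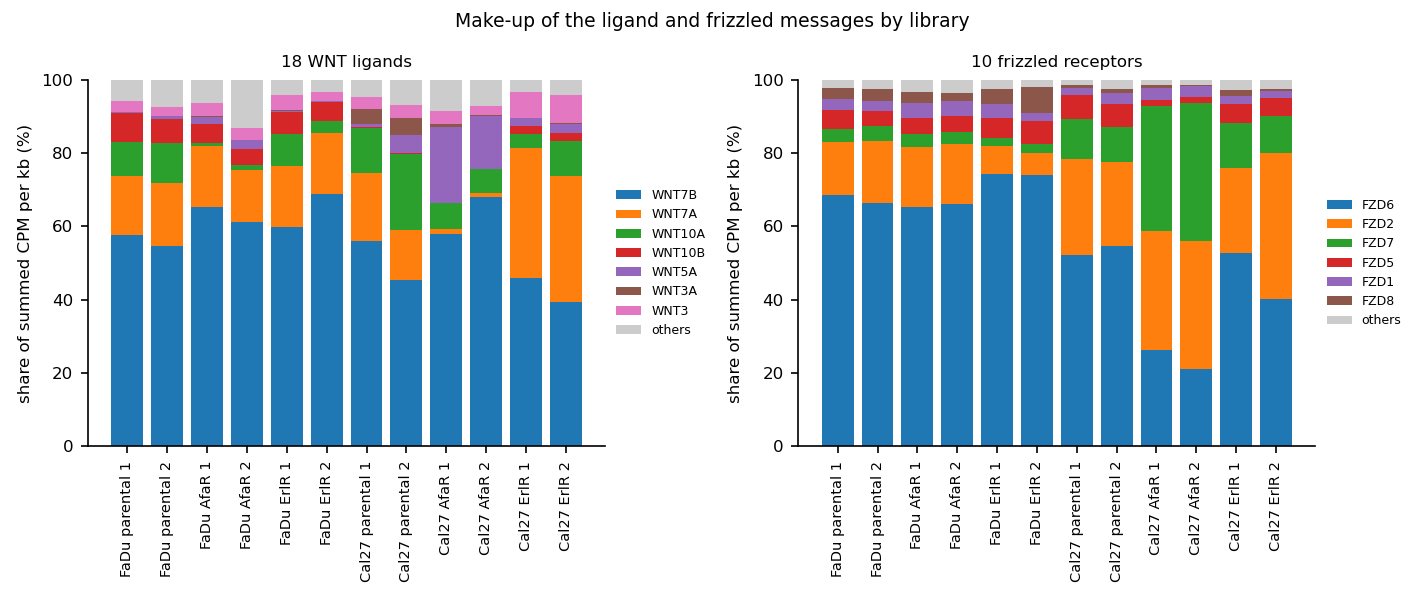
Share of each gene in the summed level per kilobase (percent, vertical axis) of the 18 WNT ligands and of the 10 frizzled receptors in each of the 12 libraries (bars). WNT5A and FZD7 widen in the Cal27 AfaR bars, WNT7A narrows there, and WNT7A widens in the Cal27 ErlR bars.

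LGR4, a receptor for R-spondins, was not called in any model. It had 119 and 118 CPM in Cal27 parental, 103 and 89.1 in AfaR and 157 and 160 in ErlR cells, and 15.3 and 17.2 CPM in FaDu parental, 10.8 and 12.6 in AfaR and 9.85 and 8.37 in ErlR cells. The ErlR values, 0.40 ± 0.13 in Cal27 (adjusted p = 0.0426) and -0.84 ± 0.19 in FaDu (adjusted p = 0.0406), passed the limit on p and not that on size. With ERCC scaling the FaDu value was -0.35 (adjusted p = 0.254). LGR5 and LGR6, the other receptors of this kind, had means of at most 0.413 and 3.55 CPM in any group. The ubiquitin ligases RNF43 (17.2 to 36.2 CPM over the 12 libraries) and ZNRF3 (14.0 to 30.5 CPM) were not called in any model. RNF43 had 18.8 and 17.2 CPM in Cal27 AfaR against 26.9 and 29.9 in parental cells, a log2 fold change of -0.66 ± 0.17 (adjusted p = 0.0135). A share of 20.3% of its exonic bases lies in other genes too.

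Of the 8 secreted antagonists, 3 rose in Cal27 AfaR (DKK1, DKK3 and SFRP1), and the other 5 were too scarce to test. Of all genes tested there, 11.5% were called higher. DKK1 (chr10:52314296-52318042, plus strand), an inhibitor of the LRP co-receptors, had 199 and 116 CPM in Cal27 parental, 376 and 532 in AfaR and 277 and 214 in ErlR cells. Both AfaR libraries lay above the other 4, with a rise of 1.53 ± 0.26 (adjusted p = 0.00180), while the ErlR value of 0.61 ± 0.26 (adjusted p = 0.105) was not called. DKK1 held from 79.2% to 95.9% of the summed antagonist level per kilobase over the 12 libraries. In the 6 FaDu libraries DKK1 lay between 78.3 and 130 CPM and was not called.

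DKK3 (chr11:11963106-12009769, minus strand), a member of the DKK family without the clear action of DKK1 on the pathway, rose in 3 models. In FaDu it had 10.4 and 15.4 CPM in parental, 52.8 and 53.7 in AfaR and 8.76 and 10.7 in ErlR cells. The FaDu AfaR rise was 2.03 ± 0.19 (adjusted p = 0.000921). In Cal27 it had 71.1 and 40.8 CPM in parental, 140 and 136 in AfaR and 128 and 121 in ErlR cells, rises of 1.3 ± 0.22 (adjusted p = 0.00161) and 1.13 ± 0.22 (adjusted p = 0.00526). All 4 resistant Cal27 libraries lay above both parental ones, but both rises fell under the fold limit without parental replicate 2 (0.96 and 0.80). SFRP1, which binds WNT ligands, was scarce, with 0.641 and 0.117 CPM in Cal27 parental and 3.62 and 3.25 in AfaR cells (3.16 ± 0.88, adjusted p = 0.0194). Its value was 4.8 without parental replicate 1, and the call was lost without parental replicate 2 or either AfaR replicate.

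Both transcription factors, LEF1 and TCF7, were called in at least 2 models. LEF1 (chr4:108047545-108168956, minus strand) had 1.40 and 1.34 CPM in Cal27 parental, 8.59 and 5.63 in AfaR and 9.77 and 9.35 in ErlR cells. It rose in both Cal27 models, by 2.37 ± 0.31 (adjusted p = 0.000430) in AfaR and 2.77 ± 0.31 (adjusted p = 0.000444) in ErlR. In FaDu it had 4.27 and 3.38 CPM in parental, 7.57 and 5.64 in AfaR and 6.91 and 4.97 in ErlR cells. All 4 resistant FaDu libraries lay above both parental ones, yet neither value passed the test (0.76 ± 0.28, adjusted p = 0.0906, and 0.62 ± 0.29, adjusted p = 0.257). LEF1 shares 5.20% of its exonic bases with LEF1-AS1 on the other strand.

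TCF7 (chr5:134114711-134151865, plus strand) rose in 3 models. It had 11.4 and 12.5 CPM in FaDu parental, 28.3 and 25.7 in AfaR and 22.3 and 39.3 in ErlR cells, rises of 1.16 ± 0.24 (adjusted p = 0.0145) and 1.35 ± 0.24 (adjusted p = 0.0224). All 4 resistant libraries lay above both parental ones, but the AfaR call was lost without parental replicate 1, parental replicate 2 or AfaR replicate 2, and the ErlR call without parental replicate 1, parental replicate 2 or ErlR replicate 2 (0.89). In Cal27 it had 10.9 and 11.6 CPM in parental, 25.5 and 27.6 in AfaR and 7.86 and 9.96 in ErlR cells. The Cal27 AfaR rise was 1.24 ± 0.18 (adjusted p = 0.000819) and the ErlR value was -0.36 (not called).

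AXIN2, the feedback inhibitor most often read as a canonical target, had 1 count over both Cal27 parental libraries and 67 over both AfaR libraries, a ratio of 64.3 higher in AfaR (95% counting interval from 11.2 to 2580). Its levels were 2.65 and 1.05 CPM in Cal27 AfaR, at most 0.128 CPM in each parental and ErlR library of Cal27, and at most 0.388 CPM in FaDu, where it was not tested. AXIN2 passed the filter on low counts in Cal27 through AfaR alone, so a rise there was the only change its test could show. The fitted log2 fold change was 5.68 ± 0.99 (adjusted p = 0.00198), 4.83 without parental replicate 1, 7.99 without parental replicate 2 and 4.85 without AfaR replicate 1. A share of 25.2% of its exonic bases lies in another gene of the same strand. NKD2, an inhibitor of the Dishevelled proteins, had 22 counts in Cal27 parental and 2 in ErlR libraries, a ratio of 10.3 lower (95% counting interval from 2.52 to 90.1). The fitted value of -3.24 ± 0.97 (adjusted p = 0.0350) was -6.47 without ErlR replicate 2, and the call was lost without parental replicate 2, ErlR replicate 1 or either AfaR replicate and with DESeq2 (adjusted p = 0.0666). Counting intervals cover counting error only.

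**Figure D4:**
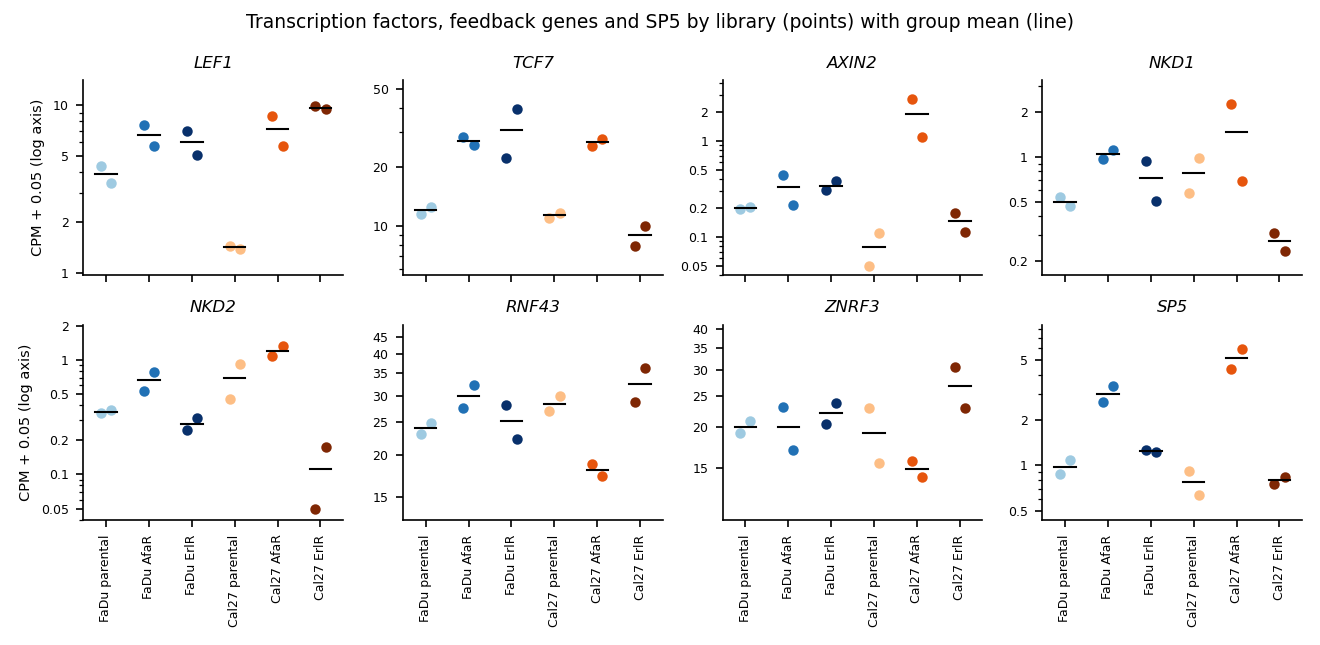
Levels of LEF1, TCF7, the feedback inhibitors AXIN2, NKD1 and NKD2, the ubiquitin ligases RNF43 and ZNRF3, and the target gene SP5 in CPM plus 0.05 (vertical log axes, scaled per gene), with a point per library and a line at the mean of the 2 libraries of each group. LEF1 is lowest in Cal27 parental cells, and AXIN2 and SP5 are highest in Cal27 AfaR.

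The 2 resistant models of a line were then compared with each other. In Cal27, 17 of 32 WNT genes were called, 14 higher and 3 lower in AfaR than in ErlR, where 27.1% of all genes were called, 18.2% higher and 8.86% lower. Those higher in AfaR included WNT5A (3.90 ± 0.60, adjusted p = 0.000715), WNT7B (1.5 ± 0.20), WNT5B (1.75 ± 0.35), WNT9A (1.73 ± 0.34), FZD7 (2.52 ± 0.15), FZD1 (1.39 ± 0.24), TCF7 (1.60 ± 0.19) and AXIN2 (67 against 3 counts). All 3 feedback inhibitors were among them, NKD1 with 2.70 ± 0.78 and NKD2 with 41 against 2 counts. Lower in AfaR were WNT7A (-3.92 ± 0.22), WNT10B (-4.41 ± 0.70) and FZD3 (-1.49 ± 0.33). Of the 17 calls, 13 held when each library was left out in turn, and those of NKD1, WNT3A, WNT6 and SFRP1 did not. NKD1 was lost without AfaR replicate 1 or either ErlR replicate, WNT3A (2.15 ± 0.60) and WNT6 (45 against 1 count) without AfaR replicate 1 or ErlR replicate 1, and SFRP1 (2.39 ± 0.82) without either AfaR replicate or ErlR replicate 2. AXIN2 was 3.40 without AfaR replicate 1. AXIN2 and WNT6 passed the filter on low counts through AfaR alone. NKD1 and NKD2 would not have passed it without the AfaR libraries. All of these could thus only be called higher in AfaR, so the shared direction of the 3 feedback inhibitors was set by the filter. WNT10B would not have passed it without the ErlR libraries, so it could only be called lower in AfaR. NKD2 was 3.18 without ErlR replicate 1 and 7.31 without ErlR replicate 2. WNT4, the remaining gene that was higher in AfaR (3.52 ± 0.73), was 2.59 without AfaR replicate 1, 2.75 without ErlR replicate 1 and 5.34 without ErlR replicate 2.

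In FaDu, 5 of 30 genes were called between AfaR and ErlR, 4 higher and 1 lower in AfaR, where 5.94% of all genes were called, 4.45% higher and 1.5% lower. DKK3 (2.45 ± 0.20, adjusted p = 0.000451), FZD2 (1.47 ± 0.20), WNT5A (2.72 ± 0.61) and FZD9 (28 against 0 counts, at least 6.43-fold) were higher in AfaR, and WNT10A was lower (-2.58 ± 0.44). WNT5A lost its call without AfaR replicate 2 or ErlR replicate 2 (3.38 without ErlR replicate 1), FZD9 when any of the 4 libraries compared was left out, and WNT10A was -1.79 without ErlR replicate 1. The FZD9 bound counts 0 as 3 counts over the group, and FZD9 passed the filter in FaDu through AfaR alone. With ERCC scaling the median of all genes moved by -0.31 in this comparison.

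Whether a resistant model differed from its parental cells by another amount in FaDu than in Cal27 was tested over all 12 libraries. For AfaR, 8 of 34 WNT genes differed, 2 with a positive and 6 with a negative difference, against 12.3% of all genes, 7.57% positive and 4.76% negative. Differences are log2 fold changes in FaDu minus those in Cal27. WNT7A fell in Cal27 AfaR and was not called in FaDu AfaR (difference 3.11 ± 0.27, adjusted p = 1.09e-05). FZD7 (-2.61 ± 0.21, adjusted p = 7.64e-06) and DKK1 (-1.73 ± 0.38) rose in Cal27 AfaR and were not called in FaDu AfaR. WNT10A fell in both AfaR models, further in FaDu (-2.40 ± 0.63). The WNT10A difference lost its call without FaDu parental replicate 2, FaDu AfaR replicate 1, Cal27 parental replicate 1 or Cal27 AfaR replicate 2. AXIN2, FZD2, FZD5 and LEF1 also differed, and each lost its call without some library. For WNT5A and WNT5B, which rose in both AfaR models, the differences were -0.97 ± 0.91 and 0.17 ± 0.63 and were not called. For ErlR, 11 of 34 differed, 5 positive and 6 negative, against 10.9% of all genes, 7.51% positive and 3.36% negative. The difference was positive for TCF7 (1.70 ± 0.33, adjusted p = 0.00464), which rose in FaDu ErlR and was not called in Cal27 ErlR. It was negative for LEF1 (-2.16 ± 0.42, adjusted p = 0.00484), DKK3 (-1.57 ± 0.33), FZD2 (-1.75 ± 0.35), LGR4 (-1.25 ± 0.19) and WNT10B (-2.16 ± 0.44, or -2.81 without Cal27 parental replicate 1). Of these, LEF1, DKK3 and WNT10B rose in Cal27 ErlR and were not called in FaDu ErlR. FZD2 fell in FaDu ErlR and was not called in Cal27 ErlR, and LGR4 was called in neither. FZD3, WNT3A, WNT4, WNT7B and WNT16 also differed, and each lost its call without some library. The LGR4 difference lost its call with ERCC scaling, which moved the median of all genes by 0.47.

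The parental lines differed from the outset. Of 34 genes, 12 were called between Cal27 and FaDu parental cells, 6 higher and 6 lower in Cal27, against 31.6% of all genes, 19.1% higher and 12.5% lower. Higher in Cal27 were LGR4 (2.86 ± 0.14, adjusted p = 1.27e-08), WNT3A (5.69 ± 0.63), DKK3 (2.12 ± 0.24), FZD7 (1.06 ± 0.15), WNT5A (2.54 ± 0.69) and WNT16 (39 against 0 counts, at least 15.1-fold). WNT16 passed the filter on low counts through Cal27 parental cells alone, so it could only be called higher there. Lower in Cal27 were WNT10B (-4.22 ± 0.33), LGR6 (-3.37 ± 0.69), FZD10 (-2.66 ± 0.85), FZD8 (-2.33 ± 0.42), WNT9A (-2.07 ± 0.35) and LEF1 (-1.48 ± 0.32). FZD7 lost its call without FaDu parental replicate 1, WNT5A without FaDu parental replicate 1 or Cal27 parental replicate 2 (its value ranged from 0.73 to 3.98 over the libraries left out), and FZD10 without FaDu parental replicate 2 or Cal27 parental replicate 1, with -7.14 without Cal27 parental replicate 2. LGR6 was -2.76 without FaDu parental replicate 2 and WNT10B -4.87 without Cal27 parental replicate 1. LEF1 and FZD10 were not called with ERCC scaling, which moved the median of all genes by 0.58.

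The 12 genes that passed the filter in neither line (WNT1, WNT2, WNT8A, WNT8B, WNT9B, WNT11, DKK2, DKK4, SFRP2, SFRP4, SFRP5 and LGR5) stayed at group means of at most 0.481 CPM, and WNT2 and WNT8A had 0 counts in all 12 libraries. A count of 0 in a library allows up to 3 counts, which is from 0.123 to 0.196 CPM. Several WNT genes lie close together. WNT6 ends 6.13 kb before WNT10A begins on chromosome 2, WNT1 lies 6.69 kb from WNT10B on chromosome 12, WNT9B 47 bases from WNT3 on chromosome 17 and WNT3A 59.2 kb from WNT9A on chromosome 1 (GRCh38). WNT3A fell in both Cal27 models, where WNT9A was not called, with log2 fold changes of 0.98 ± 0.32 (adjusted p = 0.0372) in AfaR and -0.75 ± 0.35 (adjusted p = 0.137) in ErlR, and the difference between the neighbours was not tested. WNT1 and WNT9B had 1 count each over the 12 libraries.

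Of 62 further genes of the pathway, listed by role, 50 were tested in FaDu and 52 in Cal27. In FaDu AfaR 7 rose and 0 fell, in FaDu ErlR 0 rose and 1 fell (PORCN, which adds the lipid to WNT ligands, -1.15), in Cal27 AfaR 13 rose and 2 fell, and in Cal27 ErlR 4 rose and 5 fell. In either direction this was 14%, 2%, 28.8% and 17.3% of those tested, beside 7.43%, 2.05%, 19.6% and 13.5% of all genes, so the shares in FaDu ErlR were close to each other. DESeq2 called 8 higher and 0 lower, 1 and 1, 10 and 2, and 5 and 5 in the same order. By edgeR's adjusted p alone, without the limit on size, 4 were lower in FaDu AfaR, against 7.49% of all genes, and 1 was higher in FaDu ErlR, against 2.58%, and at an unadjusted p under 0.05 in either direction there were 22 of 50 in the former (44%, beside 35.2% of all genes) and 14 of 50 in the latter (28%, beside 21.2%). The PORCN call was lost without parental replicate 1, parental replicate 2 or ErlR replicate 1 and with ERCC scaling. Their median log2 fold change was 0.08, -0.02, 0.21 and 0.09 in the 4 models. In Cal27 AfaR, where 11.5% of all genes were called higher, 2 of 4 further cited targets rose. They were SP5 (0.874 and 0.583 CPM in parental, 4.32 and 5.86 in AfaR cells, 2.79 on the log2 scale, adjusted p = 0.000676) and TNFRSF19 (2.86, or 3.52 without parental replicate 2), while CCND1 and NRCAM were not called there (-0.40 ± 0.23 and -0.27 ± 0.55). The inhibitor APCDD1 rose too, with 0 counts in parental and 78 in AfaR libraries (at least 25-fold higher, with 0 taken as 3 counts over the group). APCDD1 passed the filter in Cal27 through AfaR alone. DACT1 (3.85), the co-repressor TLE4 (2.42), ROR1, a receptor for WNT5A (9.90 and 11.0, then 21.8 and 29.6 CPM, 1.3), and the polarity genes PRICKLE1 (2.11), PRICKLE2 (2.86) and CELSR3 (2.05) rose with them. PRICKLE2 had 17 counts over both Cal27 parental libraries and would not have passed the filter in Cal27 without the AfaR libraries. A rise in AfaR was thus the only change its test there could show. KREMEN2, a partner of DKK proteins, fell in both Cal27 models (34.7 and 31.3 CPM in parental, 4.21 and 6.21 in AfaR, 6.52 and 10.0 in ErlR cells; -2.66 and -2.02).

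In FaDu AfaR, SP5 (1.64), ROR1 (1.70), TLE4 (1.68), GPC4 (1.83), PYGO1 (2.06), PRICKLE1 (1.05) and VANGL2 (1.29) rose. The call of GPC4 held without each library in turn. Those of ROR1 and PYGO1 were lost without parental replicate 1, that of TLE4 without parental replicate 2 or AfaR replicate 2, that of VANGL2 without parental replicate 1 or AfaR replicate 2, that of SP5 without either parental replicate or AfaR replicate 2, and that of PRICKLE1 when any of the 4 libraries compared was left out, and with the replicate number as a block. These 7 genes, all that rose in FaDu AfaR, were among the 13 that rose in Cal27 AfaR. The same overlap was not counted over all genes, so it cannot be read as particular to the pathway. In Cal27 ErlR, GPC4 (-3.42), PYGO1 (-3.05), VANGL2 (-1.57) and FRAT1 (-2.05) fell, and VANGL1 (61.6 and 72.1 CPM in parental, 279 and 256 in ErlR cells, 1.97), CSNK1E (1.51), PRICKLE1 (2.13) and CCND1 (1.01) rose. Of the calls in the Cal27 models, 10 of 15 in AfaR and 5 of 9 in ErlR held without each library. In AfaR, RSPO3 (2.27, or 3.23 without parental replicate 1) was lost without parental replicate 2 or either AfaR replicate, GPC4 (1.19) without parental replicate 1 or AfaR replicate 1, CELSR2 (-1.04) without replicate 2 of either group, VANGL2 (1.24) without parental replicate 1 or either AfaR replicate, and PYGO1 (1.49) when any of the 4 was left out. The calls of RSPO3, VANGL2 and PYGO1 in AfaR were also lost with DESeq2, and that of CCND1 in ErlR with upper-quartile scaling. In ErlR, FRAT1 was lost without replicate 2 of either group, CCND1 without parental replicate 2 or ErlR replicate 1, PYGO1 without ErlR replicate 1, and VANGL2 without parental replicate 2 or either ErlR replicate. CTNNB1, which encodes β-catenin, had 229 and 232 CPM in Cal27 parental, 425 and 407 in AfaR and 474 and 436 in ErlR cells, with log2 fold changes of 0.85 (adjusted p = 0.000762) and 0.96 (adjusted p = 0.000938) inside the fold limit. The co-receptor genes LRP5 and LRP6 were not called in any model.

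**Figure D5:**
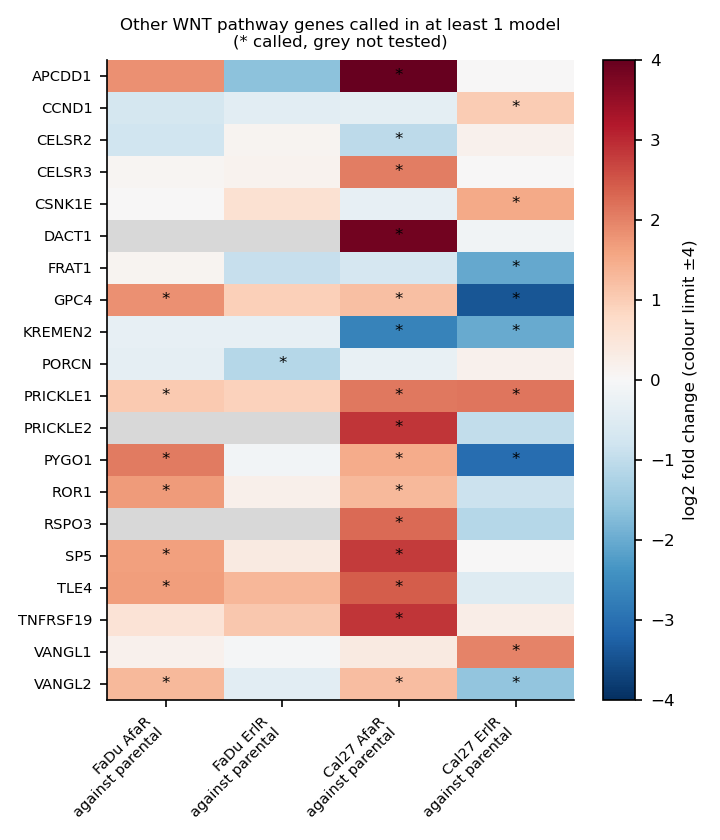
Log2 fold change (colour, limited to 4 in either direction) of the 20 further pathway genes called in at least 1 resistant model against parental cells, by model. Stars mark called genes and grey cells genes not tested; Cal27 AfaR has 15 stars and FaDu ErlR has 1.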

How the data were processed

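RNA was sequenced in 12 libraries from 6 groups, as poly(A) libraries with ERCC spike-ins. The authors trimmed reads (Trimmomatic 0.36), aligned them to GRCh38 (STAR 2.5.2b) and deposited raw counts per gene (featureCounts, Subread 1.5.2); these versions come from the submitters' processing notes, and the annotation release and strand setting are not given in the sources used here. Normalized tables made by the authors were not used. Symbols came from GENCODE 44, which matched 56948 of 58051 identifiers.

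Counts were fitted with edgeR 4.0.16 (R 4.3.3; TMM, filterByExpr, quasi-likelihood test, Benjamini-Hochberg over 15092, 15269 and 16240 genes) in 6 libraries per line, or all 12 for comparisons between lines. Libraries with 16334937 to 23399259 counts gave a biological coefficient of variation of 14.5% to 15.3%. CPM per kb divides by exon length from the files. The scripts were tested on simulated counts. Genes were named if called in at least 1 model or at a mean of 10 CPM in at least 1 group. Other genes named with values (FZD9, NKD1, WNT6, WNT16, LGR5, LGR6, CTNNB1 and NRCAM) were chosen after their values were seen. The members and lists were chosen with earlier results of these data known. Alternatives were DESeq2 1.42.0, upper-quartile and ERCC scaling, no filter, a replicate block, the 4 libraries compared alone, and each library left out.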

Additional observations from a re-analysis of the deposited data

Results flagged for a closer look

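Log2 fold changes against parental cells were unlike in the 2 lines for 8 WNT genes in AfaR and 11 in ErlR, by edgeR's quasi-likelihood test of the difference over 12 libraries. Values are the log2 fold change in FaDu minus that in Cal27. With 2 libraries per group, single libraries that stand apart could not be screened for.

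For AfaR the differences were 3.11 for WNT7A, -2.61 for FZD7 and -1.73 for DKK1 (adjusted p = 1.09e-05, 7.64e-06 and 0.00793), which held without each of the 12 libraries. They were -1.18 for FZD2, 1.02 for FZD5, -4.87 for AXIN2, -2.40 for WNT10A and -1.59 for LEF1 (adjusted p = 0.0276, 0.00663, 0.0344, 0.0193 and 0.0204). These 5 calls were lost without some library. FZD2 was lost without FaDu parental replicate 2, FaDu AfaR replicate 1, either Cal27 parental replicate or Cal27 AfaR replicate 2. FZD5 was lost without FaDu parental replicate 2, FaDu AfaR replicate 2, Cal27 parental replicate 2 or Cal27 AfaR replicate 1, and with DESeq2. AXIN2 was lost without either FaDu parental replicate, FaDu AfaR replicate 2, Cal27 parental replicate 1 or Cal27 AfaR replicate 1, and was -5.55 without FaDu AfaR replicate 1 and -7.26 without Cal27 parental replicate 2. LEF1 was lost without FaDu parental replicate 1, FaDu AfaR replicate 2, either Cal27 parental replicate or Cal27 AfaR replicate 1.

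For ErlR the differences were -1.25 for LGR4, -1.75 for FZD2, -2.16 for WNT10B, -1.57 for DKK3, -2.16 for LEF1 and 1.70 for TCF7 (adjusted p = 0.00128, 0.00507, 0.00608, 0.00730, 0.00484 and 0.00464), and these 6 held without each library. WNT3A (5.33, adjusted p = 0.00894) was lost without FaDu ErlR replicate 1 (3.86) and was 6.04 without FaDu ErlR replicate 2. FZD3 (-1.68, adjusted p = 0.0200) was lost without FaDu parental replicate 1, either FaDu ErlR replicate, Cal27 parental replicate 1 or Cal27 ErlR replicate 1, and with ERCC scaling. WNT7B (1.12, adjusted p = 0.0132) was lost without FaDu parental replicate 1, FaDu ErlR replicate 2, Cal27 parental replicate 1 or Cal27 ErlR replicate 2. WNT4 (4.04, adjusted p = 0.0393) was lost without either FaDu parental replicate, FaDu ErlR replicate 2, Cal27 parental replicate 2 or Cal27 ErlR replicate 1, and was 5.90 without Cal27 ErlR replicate 2. WNT16 (6.70, adjusted p = 0.0360) had 0 counts in FaDu parental cells, so its fitted size is no bound. It passed the filter on low counts through Cal27 parental cells alone. Its value was 7.47 without FaDu ErlR replicate 1. The WNT16 call was lost without either FaDu parental replicate, FaDu ErlR replicate 2, Cal27 parental replicate 2 or either Cal27 ErlR replicate.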

How the results depend on the processing

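No named WNT gene that was called reversed its direction under any alternative, and 16 of the 32 calls against parental cells held without each library and under every alternative, 10 of 16 in Cal27 AfaR, 4 of 8 in Cal27 ErlR, 2 of 6 in FaDu AfaR and 0 of 2 in FaDu ErlR. With 2 libraries per group, calls of scarce genes (FZD10 in FaDu, and SFRP1, NKD2 and WNT10B in Cal27) were lost without single libraries. So were calls of more abundant genes, among them DKK3 in both Cal27 models, TCF7 in both FaDu models and WNT10A in Cal27 AfaR. The cause of the changes below was not tested. In FaDu AfaR the genes called higher (5) were 3 with the 4 libraries compared alone and 1 to 4 with a library left out, and the genes called lower (1) were 1 to 2. In FaDu ErlR the genes called higher (1) were 4 with ERCC scaling, 2 without the filter and 0 to 2 with a library left out, and those called lower (1) were 2 with DESeq2, 4 without the filter, 2 with the 4 libraries alone and 0 to 2 with a library left out. In Cal27 ErlR the genes called higher (4) were 2 to 4 with a library left out. Between AfaR and ErlR in FaDu (5) there were 9 without the filter and 3 to 7 with a library left out. The AfaR effects that differed between lines (8) were 16 without the filter and 5 to 10 with a library left out, and the ErlR effects (11) were 7 to 11. ERCC scaling called 1576 of all genes in FaDu ErlR in place of 309, and 2805 in place of 1765 for the ErlR effects between lines. The share of calls that were higher became 96.1% in place of 75.4% in FaDu ErlR, 37% in place of 74.8% between AfaR and ErlR in FaDu, 93.8% in place of 69.1% for the ErlR effects and 84.8% in place of 60.4% between parental lines.

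The labels number the replicates 1 and 2 in every group, but same-numbered libraries of a line did not deviate together (correlations of deviations from -0.249 to 0.161), so the numbers were not taken as pairs. With the replicate block the genes called higher were 3 in FaDu AfaR and 2 in Cal27 ErlR, and the calls lost were FZD10 and WNT5A in FaDu AfaR, WNT10A in Cal27 AfaR, and FZD3 and WNT10B in Cal27 ErlR, and, of the further pathway genes, PRICKLE1 in FaDu AfaR. Over all genes the block moved the calls from 1122 to 999, 309 to 239, 2991 to 2888 and 2059 to 1936 in FaDu AfaR, FaDu ErlR, Cal27 AfaR and Cal27 ErlR.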
